A study of Homo sapiens with 9 samples.

Results

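The genes described here are the ligands and receptors of the tumour necrosis factor (TNF) superfamily that B cells use, together with the surface proteins by which B cells and T cells recognise and stimulate each other. They were taken by symbol: 45 were named, 14 TNF family ligands, 16 TNF family receptors, 8 proteins of the B7 family and its relatives, and 7 proteins of the CD2/SLAM and ICAM families. Of these, 38 were among the 16586 genes of the deposited table. TNF, LTA, CD40LG, TNFSF11, TNFSF12, PDCD1LG2 and BTLA were not analysed here. The samples were 9 RNA-seq libraries of Z138, an established line of mantle cell lymphoma, a cancer of B cells. They came from 3 groups of 3 libraries each: the rescue, in which SOX11 knockout cells had SOX11 returned, the SOX11 knockout, and unedited wild-type Z138. The labels give the rescue the genotype SOX11KO+SOX11Rescue, the knockout SOX11KO and the wild type WT, each group has 1 library in each of batches 1, 2 and 3, and the sources used here do not describe how the edit and the rescue were made. The labels do not say whether either line is 1 clone or whether the libraries of a group are separate cultures, so the p-values measure only the spread between these libraries. SOX11 is a transcription factor with a role in the developing nervous system, and it is found in most mantle cell lymphomas.

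TNF family ligands are mostly trimers held in the membrane of one cell, and they bind receptors on the same cell or a neighbouring one. The receptors carry no enzyme activity and signal through TRAF adaptors to NF-kB and stress kinases, and those with a death domain can also start cell death. In B cells the BAFF receptor maintains survival and CD40 receives help from T cells. The B7 proteins CD80 and CD86 give a T cell its second signal through CD28 or restrain it through CTLA4, and the CD2/SLAM and ICAM families hold the cells together.

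Levels are given as normalized counts, recovered from the deposited log2 values, as the value of each library or as mean ± SD with n = 3 libraries per group. SOX11, the edited gene, had 12818, 13849 and 12715 normalized counts in the rescue libraries, 901, 1335 and 862 in the knockout libraries, and 3800.4, 3845 and 3003 in the wild-type libraries. The knockout libraries thus still held SOX11 transcript, and the rescue libraries held more than the wild-type ones. No library of one group fell in the range of another, and the two-sided exact permutation test gave p = 0.1 in each of the 3 comparisons, below which groups of 3 cannot go. The estimated depth was 30800000 to 40800000 reads per library. The 6 B cell markers summed to 45972 to 53262 normalized counts in the rescue, 43417 to 48809 in the knockout and 43882 to 52744 in wild type. The 7 T cell markers summed to 470.2 to 493, 552 to 656, and 347 to 487 in those groups. CD3G and CD3E made up most of each sum, CD5 and CD8B had at most 3.53 in any library, and CD7 was at 0 in the 3 knockout libraries. The 3 NK cell markers summed to 60.4 to 100.2 in the rescue, 68.5 to 104 in the knockout and 29.2 to 47.4 in wild type, and the 4 myeloid markers to 44.6 to 56.5, 44.0 to 47.9 and 15.6 to 22.6. The part of these markers in the results below was not tested.

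A gene was tested where its CPM, the normalized count scaled by the library's total, was at least 1 in at least 3 libraries. This held for 24 of the 38 genes: 4 ligands, 11 receptors, 5 of the B7 family and 4 of the CD2/SLAM and ICAM families. The other 14 did not exceed 26.5 normalized counts in any library. They were the ligands LTB, TNFSF4 (OX40 ligand), TNFSF8 (CD30 ligand), TNFSF13B (BAFF) and TNFSF14 (LIGHT), the receptors TNFRSF4 (OX40), TNFRSF9 (4-1BB), TNFRSF25, LTBR and NGFR, the checkpoint protein VSIR, and SLAMF1, SLAMF6 and SLAMF7. LTB is listed under an identifier that is not that of the gene on the primary assembly, so its value of at most 7.09 may hold only part of its reads.

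Genes were compared with each other per kilobase of merged exon, a rough scale that depends on the annotated length of each gene. On it CD70 and the BCMA receptor TNFRSF17 stood highest in wild type, at 2055 ± 226 and 1782 ± 309 normalized counts per kb (SD, n = 3). These neighbours overlapped in their libraries. CD70 is the ligand of CD27, and CD27 itself had 28.2 ± 1.65 normalized counts per kb in wild type. CD48, a ligand of the SLAM family receptor CD244, came next at 861 ± 77.3. TNFRSF1B, TNFSF9, TNFRSF13B and ICAM2 followed between 446 and 493. The checkpoint ligand CD274 (PD-L1), at 8.78 ± 1.91, and the death ligand TNFSF10 (TRAIL), at 6.97 ± 1.10, were among the lowest of the genes tested.

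**Figure D1:**
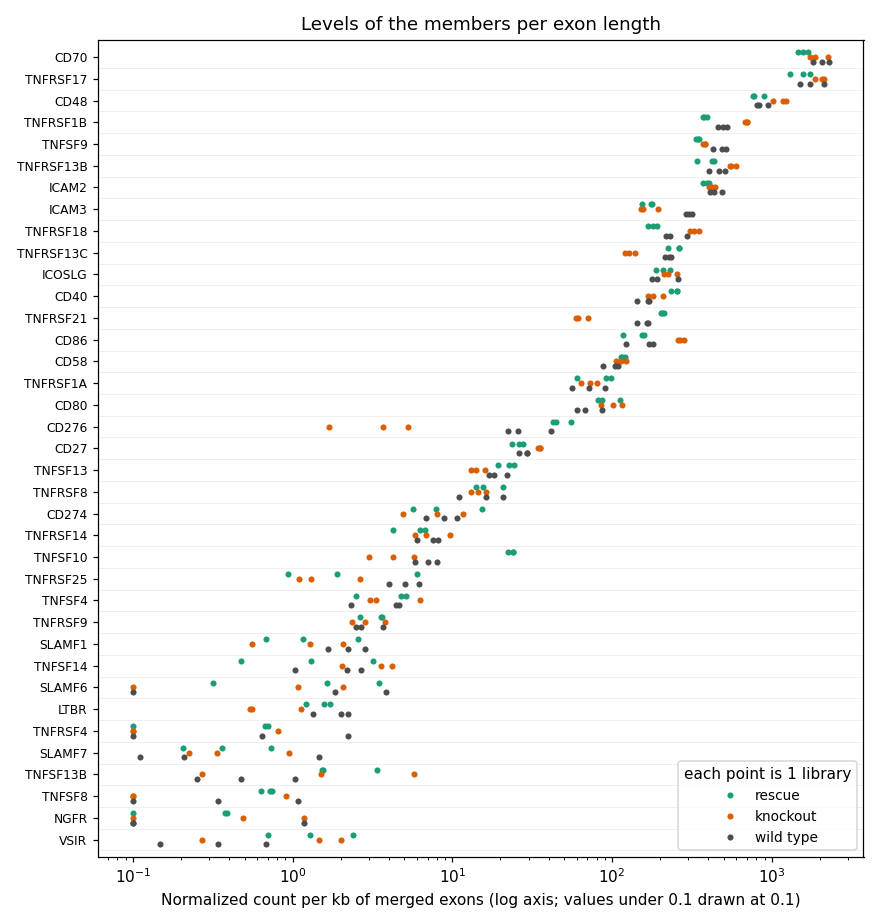
Normalized counts per kb of merged exons (log axis) of the 37 genes with an annotated length, sorted by their wild-type mean. Each point is 1 library, coloured by group, with rescue above knockout above wild type. CD70 and TNFRSF17 lie at the top, and the 13 untested genes at the bottom average at most 5.07 normalized counts per kb in wild type.

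The knockout was compared with wild type, the rescue with the knockout and the rescue with wild type by limma, fitted to all genes and the 9 libraries, with Benjamini-Hochberg adjusted p-values and a threshold of 0.05 for a call. Differences are log2 differences on the deposited scale, and folds are ratios of mean normalized counts. That scale understates changes, most strongly those of low genes. Of the 24 tested genes 8 were called in the knockout relative to wild type, which was 33.3% of them against 12.7% of all 11542 genes. Of these 3 were higher and 5 lower, beside 5.36% higher and 7.37% lower among all genes. In the rescue against the knockout 11 were called, 45.8% of them against 22.1% of all genes. Of these 5 were higher and 6 lower, beside 11.5% and 10.7% among all genes. In the rescue against wild type 5 were called, 20.8% of them against 4.07% of all genes. Of these 2 were higher and 3 lower, beside 2.3% and 1.78% among all genes. The libraries of the groups compared did not overlap for 13 genes in the knockout against wild type (29.5% of all genes), 16 in the rescue against the knockout (41.8% of all genes) and 11 in the rescue against wild type (20.8% of all genes). Of the called genes, TNFSF10 passed the filter only through the rescue and CD276 only through the rescue and wild type, so part of a difference was built into their being tested. TNFSF10 is among the calls in both comparisons of the rescue, and CD276 in both comparisons of the knockout. With the batch as a block 11, 12 and 8 of the 24 were called in these comparisons, beside 21.5%, 31.2% and 8.06% of all genes. The median log2 differences of the 24 genes were 0.00, -0.05 and -0.01 in these comparisons, beside 0.00, -0.01 and 0.00 over all genes. Any pair of these comparisons shares 1 group of libraries. In all 13 genes were called at least once, and each of the 24 calls had one direction in the 3 batches, which are the libraries the calls came from. In bulk RNA, fewer cells with a transcript and less transcript per cell cannot be told apart.

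**Figure D2:**
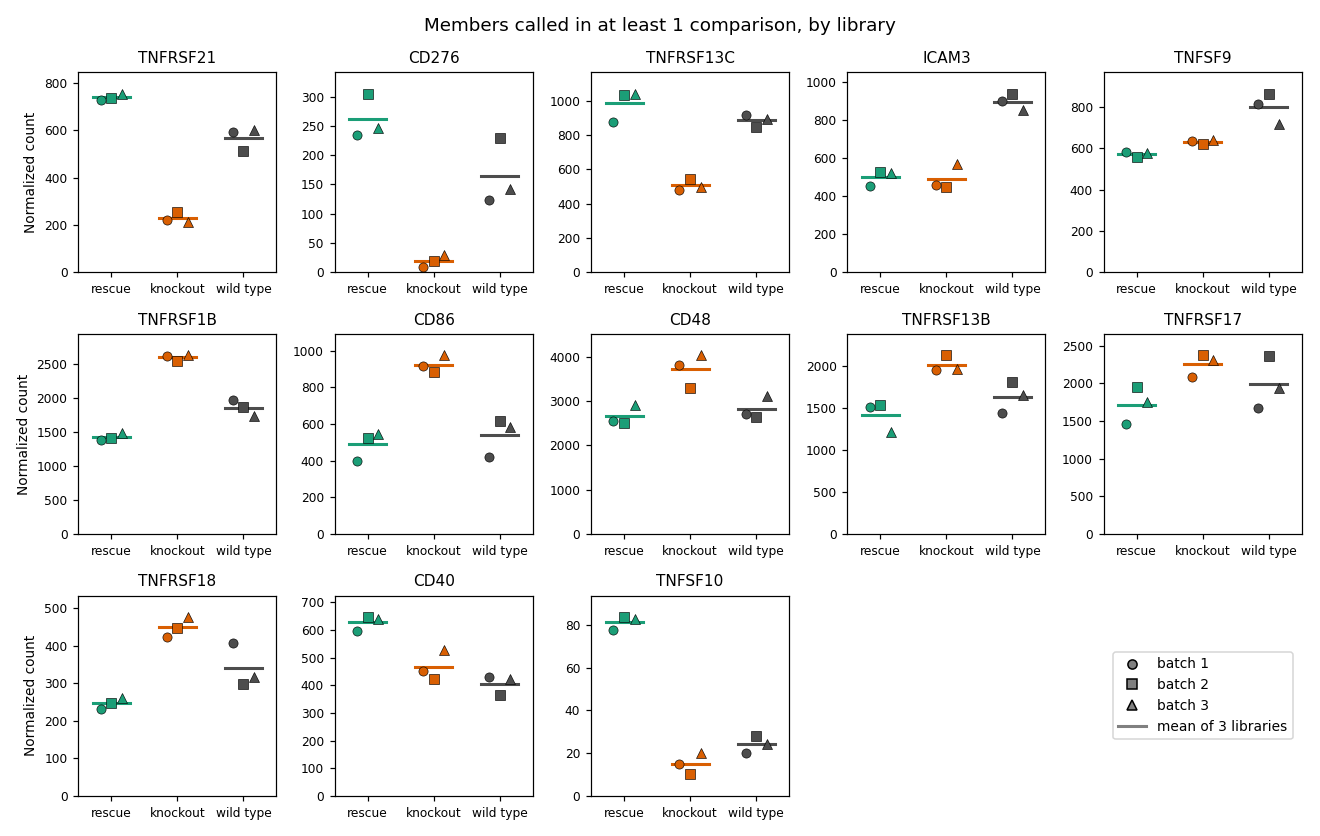
Normalized count (vertical axis, starting at 0) of the 13 genes called in at least 1 comparison, in the rescue, knockout and wild-type groups. Each point is 1 library, its shape gives the batch, and lines are means of 3 libraries. By mean, TNFRSF21, CD276 and TNFRSF13C are lowest in the knockout, TNFRSF1B, CD86, CD48, TNFRSF13B, TNFRSF17 and TNFRSF18 are highest in it, ICAM3 and TNFSF9 are highest in wild type, and CD40 and TNFSF10 are highest in the rescue.

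Among the receptors the largest change was in TNFRSF21, known as death receptor 6, a death domain receptor that is best known in neurons and also restrains lymphocyte responses (ENSG00000146072.6, chromosome 6, 47231532 to 47309905, minus strand, GRCh38). TNFRSF21 had 728, 735 and 755 normalized counts in the rescue libraries, 221, 254 and 213 in the knockout libraries, and 593, 511 and 603 in the wild-type libraries. The 3 groups did not overlap, with the knockout lowest and the rescue highest. It fell 2.49-fold in the knockout against wild type (log2 difference -0.57, SE 0.053, adjusted p = 3.78e-05). In the rescue it was 3.23-fold above the knockout (log2 difference 0.78, adjusted p = 2.74e-06). Against wild type the rescue was not called (1.3-fold, adjusted p = 0.0589), but it was with the batch as a block (adjusted p = 0.0392).

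The 250 bases before a RefSeq start site were read for the 6 genes called in each of the comparisons that involve the knockout, of which 5 had a window. They are printed where the window lies outside annotated exons, which left TNFRSF21 and CD86, a gene that fell and a gene that rose in the knockout. They were searched on both strands for ACAAAG and ACAATG, cores of the sequence that SOX proteins bind, and for an NF-kB motif made of GGG, any 2 bases and TTTCC. Capitals mark a match to any of these on either strand, and the sequences run 5′ to 3′ on the strand of the gene in GRCh38.p14. The windows are chr6:47309906-47310155 for TNFRSF21 (minus strand) and chr3:122055112-122055361 and chr3:122077534-122077783 for the first and second start sites of CD86 (plus strand).
TNFRSF21: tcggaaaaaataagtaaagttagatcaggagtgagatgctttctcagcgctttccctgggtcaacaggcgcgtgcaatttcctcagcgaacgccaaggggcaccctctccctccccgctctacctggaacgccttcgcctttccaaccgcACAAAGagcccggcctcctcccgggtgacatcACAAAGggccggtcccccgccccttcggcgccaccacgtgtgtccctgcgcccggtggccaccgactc
CD86 first start site: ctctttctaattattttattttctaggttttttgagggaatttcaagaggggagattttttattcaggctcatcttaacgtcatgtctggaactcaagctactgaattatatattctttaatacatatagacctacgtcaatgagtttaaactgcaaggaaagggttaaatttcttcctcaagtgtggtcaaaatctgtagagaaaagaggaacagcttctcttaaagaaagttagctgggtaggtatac
CD86 second start site: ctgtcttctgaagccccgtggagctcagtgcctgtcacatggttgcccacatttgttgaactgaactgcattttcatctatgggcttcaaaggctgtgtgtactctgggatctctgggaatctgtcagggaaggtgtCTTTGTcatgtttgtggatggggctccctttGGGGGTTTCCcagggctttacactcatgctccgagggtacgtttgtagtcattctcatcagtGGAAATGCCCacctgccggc
TNFRSF21 held ACAAAG at 2 places, each as written. The second CD86 window held it once, on the other strand, and held the NF-kB motif at 2 places, while the first CD86 window held none of the 3. ACAAAG was in 13.7% of the 35116 windows of this length, ACAATG in 9.29% and the NF-kB motif in 1.73%. Of the 24 windows of the tested genes, which came from 19 genes, 3 held ACAAAG, 1 held ACAATG and 1 held the NF-kB motif. A match in these letters is a description of the sequence and not a bound site.

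The 3 receptors of the BAFF and APRIL system did not move in one direction. TNFRSF13C, the BAFF receptor that mature B cells need to survive, had 879, 1033 and 1042 normalized counts in the rescue, 478, 547 and 500.3 in the knockout, and 916, 849 and 894 in wild type. The knockout libraries lay below all others, and the rescue and wild-type libraries overlapped. It fell 1.74-fold in the knockout against wild type (log2 difference -0.44, SE 0.058, adjusted p = 4.36e-04) and rose 1.94-fold in the rescue against the knockout (log2 difference 0.53, adjusted p = 7.16e-05).

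TNFRSF13B (TACI), which binds both BAFF and APRIL and restrains B cell numbers, had 1507, 1536 and 1214 normalized counts in the rescue, 1951, 2125 and 1960.4 in the knockout, and 1435, 1802 and 1648 in wild type. Here the knockout libraries lay above all others. It fell 1.42-fold in the rescue against the knockout (log2 difference -0.37, SE 0.077, adjusted p = 0.00585; adjusted p = 0.0914 without batch 3). The knockout against wild type was not called (log2 difference 0.23, adjusted p = 0.0785), but was with the batch as a block (adjusted p = 0.0258) and without wild-type replicate 2 (adjusted p = 0.0425).

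TNFRSF17 (BCMA), the receptor that supports long-lived plasma cells, had 1459.5, 1949.8 and 1746 normalized counts in the rescue, 2087, 2371 and 2303 in the knockout, and 1676, 2361 and 1939.6 in wild type. The rescue libraries lay below the knockout ones, and wild type overlapped both. The rescue fell 1.31-fold below the knockout and only just passed (log2 difference -0.30, SE 0.097, adjusted p = 0.0484). That call was lost in 12 of 20 alternative settings, among them the fit without any 1 of rescue replicates 1 and 3, the 3 knockout replicates or wild-type replicate 3 (adjusted p up to 0.165), or without batch 1 or 3 (adjusted p up to 0.269). The 3 plasma cell markers summed to 5819 to 6394 normalized counts in the rescue, 6827 to 7519 in the knockout and 6033 to 7185 in wild type. Of these XBP1, a transcription factor of secretory cells, was lower in the rescue than in the knockout (1.52-fold, adjusted p = 1.22e-04) and than in wild type (1.31-fold, adjusted p = 0.00986). SDC1 (CD138) averaged 2770.3 ± 178 in the rescue, 2482 ± 245 in the knockout and 2435 ± 372 in wild type and was not called, nor was PRDM1. The part of these markers in the TNFRSF17 result was not tested. The ligands of these receptors were low: TNFSF13B was under the filter, and TNFSF13 (APRIL) averaged 50.1 ± 5.49 in the rescue, 32.7 ± 3.48 in the knockout and 43.4 ± 5.70 in wild type and was not called (adjusted p = 0.111 in the rescue against the knockout and 0.37 in the knockout against wild type). Its exons overlap those of the read-through gene TNFSF12-TNFSF13.

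TNFRSF1B, the second TNF receptor, which lacks a death domain, had 1388, 1413 and 1484 normalized counts in the rescue, 2618, 2546 and 2629 in the knockout, and 1967, 1863 and 1737 in wild type. The 3 groups did not overlap, with the knockout highest and the rescue lowest. It rose 1.4-fold in the knockout against wild type (log2 difference 0.37, SE 0.051, adjusted p = 5.46e-04), fell 1.82-fold in the rescue against the knockout (log2 difference -0.64, adjusted p = 7.56e-06) and was 1.3-fold lower in the rescue than in wild type (log2 difference -0.27, adjusted p = 0.0123). The last call was lost without rescue replicate 1 or 2 (adjusted p = 0.0516 and 0.0529) or any 1 batch (adjusted p up to 0.248). TNFRSF1A, the first TNF receptor, which has a death domain, averaged 336 ± 81.2, 289 ± 32.6 and 291 ± 67.4 in the rescue, knockout and wild-type groups and was called in none of the comparisons.

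TNFRSF18 (GITR), a costimulatory receptor best known on T cells, had 230.4, 247 and 261 normalized counts in the rescue, 423, 448 and 477 in the knockout, and 406, 297 and 316 in wild type. The rescue libraries lay below the wild-type ones and these below the knockout ones, without overlap. It fell 1.82-fold in the rescue against the knockout (log2 difference -0.36, SE 0.059, adjusted p = 0.00117). In the rescue against wild type it was not called (1.38-fold lower, adjusted p = 0.138). There it was not called with the batch as a block either (adjusted p = 0.0905). In the knockout against wild type it was not called (1.32-fold, adjusted p = 0.0657), but was with the batch as a block (adjusted p = 0.0479), with quantile normalization (adjusted p = 0.0353) and without wild-type replicate 1 (adjusted p = 0.0215).

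CD40, through which T cells license B cells, was highest in the rescue. It had 595, 647 and 640.0 normalized counts there, 453, 423 and 527 in the knockout, and 430.0, 363 and 423 in wild type, so the rescue libraries lay above all others while knockout and wild type overlapped. The rescue was 1.55-fold above wild type (log2 difference 0.31, SE 0.058, adjusted p = 0.0111) and 1.34-fold above the knockout (log2 difference 0.22, adjusted p = 0.0202). Against wild type the call was lost without rescue replicate 2 or 3 (adjusted p = 0.0508 and 0.055), and against the knockout without rescue replicate 2 or 3 or knockout replicate 1 or 2 (adjusted p up to 0.073). Both calls were lost without any 1 batch (adjusted p up to 0.134). CD27, TNFRSF8 (CD30) and TNFRSF14 (HVEM), at 26.4 to 78.0 normalized counts in their libraries, were called in none of the comparisons, and the antisense gene CD27-AS1 overlaps CD27.

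Of the 4 tested ligands, TNFSF10 (TRAIL), which triggers cell death through the receptors TNFRSF10A and TNFRSF10B, changed most. It had 77.7, 83.8 and 82.8 normalized counts in the rescue, 14.8, 10.4 and 19.9 in the knockout, and 20.3, 27.9 and 24.4 in wild type. The rescue libraries stood well above both other groups. TNFSF10 passed the filter only through the rescue, so that some difference was built into its being tested. It rose 5.41-fold in the rescue against the knockout (log2 difference 0.37, SE 0.042, adjusted p = 8.66e-05) and was 3.36-fold above wild type (log2 difference 0.30, adjusted p = 0.00193; adjusted p = 0.0574 without batch 1 and 0.0741 without batch 3). In the knockout against wild type it was not called (adjusted p = 0.27).

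TNFSF9 (4-1BB ligand), which stimulates activated T cells, had 580.0, 557 and 577 normalized counts in the rescue, 632, 618 and 639.6 in the knockout, and 811, 862 and 714 in wild type. Both edited groups lay below wild type. It was 1.26-fold lower in the knockout than in wild type (log2 difference -0.19, SE 0.054, adjusted p = 0.0421), a call lost in 14 of 20 settings, including the fit without any 1 library other than wild-type replicate 3 (adjusted p up to 0.116). It was 1.39-fold lower in the rescue than in wild type (log2 difference -0.26, adjusted p = 0.0197), a call lost without any 1 rescue library or wild-type replicate 1 or 2 (adjusted p up to 0.0815) and without any 1 batch (adjusted p up to 0.231).

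CD70 was by mean the most abundant of these genes per kilobase in wild type, while TNFRSF17 was above it in the knockout. CD70 had 2400.3, 2224 and 2564 normalized counts in the rescue, 2864, 2672 and 3447 in the knockout, and 2788, 3179 and 3478 in wild type. The rescue libraries lay below the libraries of both other groups. It was not called in the rescue against the knockout (log2 difference -0.25, adjusted p = 0.058) or against wild type (log2 difference -0.31, adjusted p = 0.0779). With the batch as a block both were called (adjusted p = 0.0066 and 0.00736). So was the first without knockout replicate 2 (adjusted p = 0.037) or wild-type replicate 1 (adjusted p = 0.0457), with median centring or with only the groups compared, and the second without knockout replicate 3 (adjusted p = 0.0498).

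In the B7 family CD276 (B7-H3), an immune checkpoint protein of many solid tumours, showed the largest fold change of all genes described here (ENSG00000103855.18, chromosome 15, 73683966 to 73714518, plus strand, GRCh38). It had 235, 305 and 247 normalized counts in the rescue, 9.31, 20.4 and 29.2 in the knockout, and 123, 229.6 and 142 in wild type. The knockout libraries lay far below the others, and the rescue libraries lay above the wild-type ones. CD276 reached a CPM of 1 in none of the knockout libraries, so it was tested because of the other groups. It fell 8.41-fold in the knockout against wild type (log2 difference -0.60, SE 0.077, adjusted p = 3.56e-04) and rose 13.4-fold in the rescue against the knockout (log2 difference 0.84, adjusted p = 2.19e-05). The rescue was 1.59-fold above wild type, which was not called (adjusted p = 0.133), but was with the batch as a block (adjusted p = 0.031) and without wild-type replicate 2 (adjusted p = 0.0272).

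CD86, the B7 protein present early on activated B cells, moved the other way. It had 401, 526 and 545 normalized counts in the rescue, 915, 884 and 975 in the knockout, and 418, 617 and 585 in wild type, and the knockout libraries lay above all others. It rose 1.71-fold in the knockout against wild type (log2 difference 0.44, SE 0.081, adjusted p = 0.00421; adjusted p = 0.0703 without batch 3) and fell 1.88-fold in the rescue against the knockout (log2 difference -0.51, adjusted p = 0.00111).

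CD80, the other ligand of CD28, averaged 299 ± 53.9 in the rescue, 322 ± 48.7 in the knockout and 229 ± 42.2 in wild type, with overlapping libraries. It was not called in the knockout against wild type (adjusted p = 0.11) but was with the batch as a block (adjusted p = 0.0122). ICOSLG, the ligand of ICOS, averaged 1952 ± 195, 2141 ± 203 and 1959 ± 413 in the rescue, knockout and wild type, and CD274 averaged 39.6 ± 20.8, 33.7 ± 13.9 and 36.1 ± 7.84. Neither was called in a comparison. ICOSLG has a near-identical copy in the genome assembly, so its level is less certain.

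Of the CD2/SLAM and ICAM families, CD48 rose in the knockout. It had 2547, 2499 and 2917 normalized counts in the rescue, 3823, 3307 and 4034 in the knockout, and 2707, 2639 and 3108 in wild type. The knockout libraries lay above all others. It was 1.32-fold higher in the knockout than in wild type (log2 difference 0.33, SE 0.077, adjusted p = 0.0168), a call lost without knockout replicate 1 or 3 (adjusted p = 0.0667 and 0.0717), wild-type replicate 1 (adjusted p = 0.0596), batch 1 or batch 3 (adjusted p = 0.222 and 0.0526). It fell 1.4-fold in the rescue against the knockout (log2 difference -0.40, adjusted p = 0.00378; adjusted p = 0.0819 without batch 1). CD58, the ligand of CD2, averaged 208 ± 7.16, 203 ± 15.7 and 179 ± 20.6 in the rescue, knockout and wild type and was not called.

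ICAM3, an adhesion ligand of the integrin LFA-1 on resting leukocytes, was lower in both edited groups than in wild type. It had 455, 525 and 520.5 normalized counts in the rescue, 458, 448 and 568 in the knockout, and 897, 937 and 852 in wild type, and no library of the edited groups reached the wild-type range. It was 1.82-fold lower in the knockout than in wild type (log2 difference -0.48, SE 0.061, adjusted p = 3.51e-04) and 1.79-fold lower in the rescue than in wild type (log2 difference -0.46, SE 0.061, adjusted p = 0.00123; adjusted p = 0.0546 without batch 1). The rescue and the knockout overlapped, with a log2 difference of 0.01 (SE 0.061, adjusted p = 0.898). The antisense gene AC114271.1 overlaps ICAM3 over most of its exons. The labels do not say which libraries kept strand, so reads of ICAM3 and of this gene cannot be told apart. The same holds where exons overlap for CD48 with AL121985.1, CD80 with TIMMDC1, ICAM2 with PRR29 and TNFRSF14 with TNFRSF14-AS1. On the same strand, exons of TNFRSF13B overlap the pseudogene TBC1D27P. ICAM2, another ligand of LFA-1, averaged 1262 ± 59.2, 1369.6 ± 55.2 and 1445 ± 129 in the rescue, knockout and wild type and was not called.

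**Figure D3:**
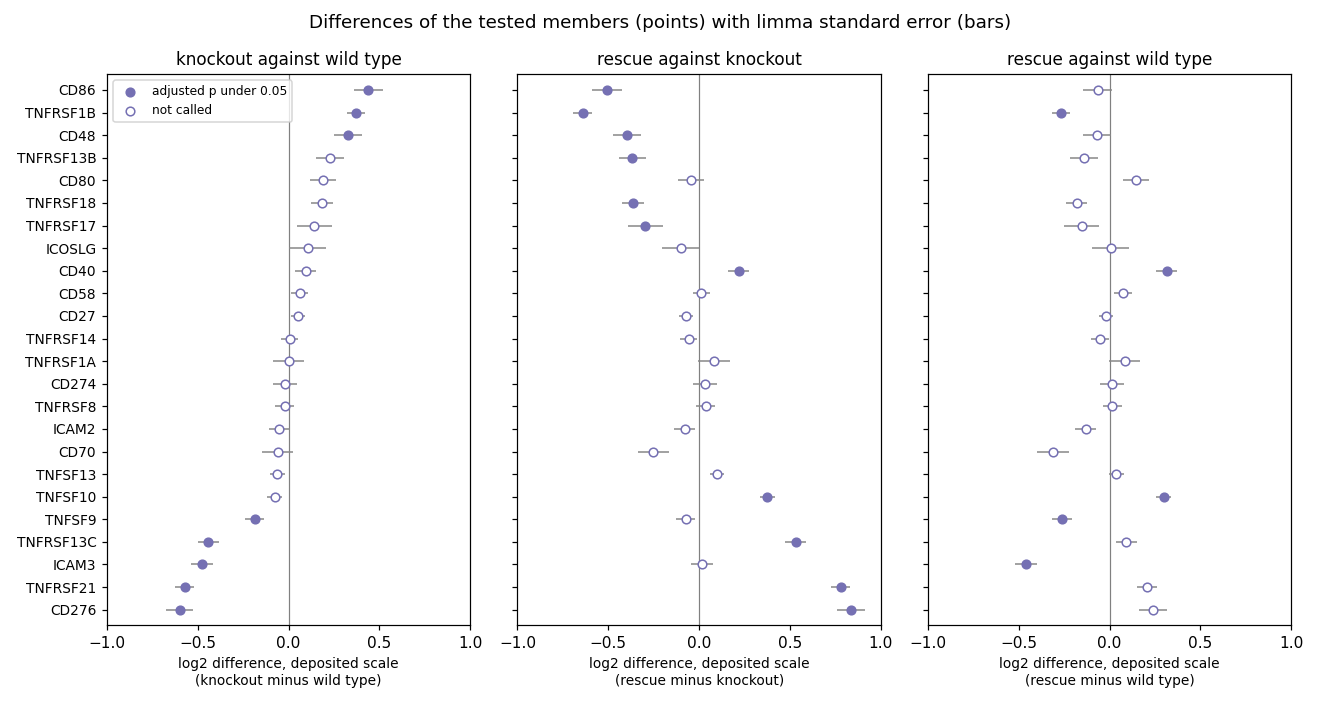
Log2 differences on the deposited scale (horizontal axis, points) with limma standard errors (bars) of the 24 tested genes in the 3 comparisons, sorted by the knockout against wild type. Filled points have an adjusted p under 0.05: 8, 11 and 5 genes from left to right. CD276 and TNFRSF21 lie farthest to the left in the first panel and farthest to the right in the second.

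Genes that act with these proteins were examined by list. Of 32 tested adaptors and NF-kB regulators, 1 was called in the knockout relative to wild type, 3.12% of the list against 12.7% of all genes. In the rescue against the knockout 3 rose and 2 fell, 15.6% against 22.1%. In the rescue against wild type 1 was called, 3.12% against 4.07%. With the batch as a block 8, 9 and 2 of the 32 were called in these comparisons, where the block called 21.5%, 31.2% and 8.06% of all genes. TNFAIP3 (A20), an enzyme that ends TNF receptor signals, had 5286 ± 525 normalized counts in the rescue and 3254 ± 198 in the knockout (1.62-fold higher, adjusted p = 1.15e-04) and 3715 ± 203 in wild type, below the rescue (adjusted p = 0.00459; adjusted p up to 0.117 without batch 1 or 3). TRAF4, a TRAF adaptor, rose 1.45-fold in the rescue against the knockout, to 3652 ± 206 against 2526 ± 255 (adjusted p = 7.86e-04). TRADD, the adaptor of death domain receptors, fell 1.38-fold (adjusted p = 0.0281), a call lost without rescue replicate 2 or 3, knockout replicate 1 or 3, batch 1 or batch 3 (adjusted p up to 0.203). REL, an NF-kB subunit, was lower in the knockout than in wild type (adjusted p = 0.0476), a call lost in 14 of 20 settings, and higher in the rescue than in the knockout (adjusted p = 0.0455), lost in 13 of 20. For both of these, leaving out any 1 batch or rescue library was enough (adjusted p up to 0.244).

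Of 8 tested further TNF family ligands and receptors, 2 were called between knockout and wild type (25% against 12.7% of all genes), 2 in the rescue against the knockout (25% against 22.1%) and 1 in the rescue against wild type (12.5% against 4.07%). With the batch as a block 3, 4 and 2 of the 8 were called, beside 21.5%, 31.2% and 8.06% of all genes. TNFRSF19 (TROY), a receptor best studied in the nervous system, fell 2.11-fold in the knockout, to 363 ± 59.3 normalized counts against 766 ± 116 in wild type (adjusted p = 4.63e-04). It was 2.23-fold higher in the rescue, at 809 ± 14.5, than in the knockout (adjusted p = 1.66e-04). FAS, the death receptor by which T cells remove B cells, rose 1.93-fold in the knockout, to 442 ± 108 against 229 ± 78.8 in wild type (adjusted p = 0.0292), and fell 2.51-fold in the rescue, to 176 ± 43.5 (adjusted p = 0.00488; adjusted p = 0.069 without batch 3). The first FAS call was lost on the log2(CPM + 0.1) scale and without knockout replicate 1 or 3, wild-type replicate 2, batch 1 or batch 3 (adjusted p up to 0.145). TNFRSF10B, a receptor of TNFSF10, was 1.5-fold lower in the rescue, at 1072 ± 151, than in wild type, at 1603 ± 199 (adjusted p = 0.0176; up to 0.252 without rescue replicate 1 or 3, batch 1 or batch 3).

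Of 5 tested further B7, SLAM and adhesion proteins, limma called 0 in the knockout against wild type, where 12.7% of all genes were called. There 1 of the 5 had an unadjusted p under 0.05. It called 1 in the rescue against the knockout (20% against 22.1%) and 1 in the rescue against wild type (20% against 4.07%). With the batch as a block limma called 2 in the knockout against wild type, 1 higher and 1 lower, 1 in the rescue against the knockout and 3 in the rescue against wild type. The block called 21.5%, 31.2% and 8.06% of all genes in these comparisons. NCR3LG1 (B7-H6), a ligand of the NK cell receptor NKp30, fell 1.7-fold in the rescue against the knockout (1585 ± 344 against 2688 ± 369, adjusted p = 0.0103; up to 0.119 without batch 1 or 3). CD84, a SLAM family receptor, was 1.5-fold higher in the rescue than in wild type (adjusted p = 0.0425), a call lost in 14 of 20 settings, such as without any 1 batch or knockout library (adjusted p up to 0.425). Among 4 tested partners that T and NK cells carry, limma called 0 in the rescue against the knockout, against 22.1% of all genes. There 2 had an unadjusted p under 0.05, and 1 was called with the batch as a block, which called 31.2% of all genes. In the knockout against wild type 2 were called (50% against 12.7%) and in the rescue against wild type 1 (25% against 4.07%). Both chains of LFA-1 were higher in the knockout than in wild type. ITGAL was at 104 ± 30.5 against 38.4 ± 8.80 (2.7-fold, adjusted p = 0.0102, up to 0.075 without any 1 batch). ITGB2 was at 104 ± 18.5 against 43.9 ± 27.2 (2.36-fold, adjusted p = 0.0336). ITGB2 was also higher in the rescue, at 129.7 ± 17.0, than in wild type (adjusted p = 0.0202). The first ITGB2 call was lost with only the groups compared and without rescue replicate 3, any 1 knockout replicate, wild-type replicate 1 or 3, batch 1 or batch 3 (adjusted p up to 0.28) and the second without rescue replicate 2 or 3, batch 1 or batch 3 (adjusted p up to 0.176). LFA-1 is also made by B cells. The T cell marker sum was 552 to 656 normalized counts in the knockout and 347 to 487 in wild type, and the NK cell marker sum 68.5 to 104 in the knockout and 29.2 to 47.4 in wild type. The myeloid marker sum was 44.0 to 47.9 in the knockout and 15.6 to 22.6 in wild type. Among the single markers CD3E was 2.25-fold higher in the knockout than in wild type (adjusted p = 0.00871) and NKG7 3.41-fold higher (adjusted p = 0.00589). CD3G (adjusted p = 0.0928) and KLRD1 (adjusted p = 0.244) were not called there, though CD3G was with the batch as a block (adjusted p = 0.0484). CD3D and GNLY had at most 4.75 and 5.02 normalized counts in any library. CD3E was also higher in the rescue than in wild type (2.16-fold, adjusted p = 0.0287). NKG7 was 2.26-fold higher in the rescue than in wild type, which was not called (adjusted p = 0.145). CD8A had at most 2.92 normalized counts in the knockout libraries and at least 10.7 in the wild-type libraries. The part of these markers in this result was not tested. Of the 6 enzymes that cut TNF family proteins from the membrane, limma called 0 in each of the 3 comparisons. It called 12.7%, 22.1% and 4.07% of all genes in them, and 1, 1 and 0 of the 6 had an unadjusted p under 0.05. With the batch as a block it called 1 lower in the knockout against wild type, 2 higher in the rescue against the knockout and 0 in the rescue against wild type. Over all genes the block called 21.5%, 31.2% and 8.06%.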

How the data were processed

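The deposited table holds log2 values per gene for the 9 libraries. Although the table is named for log CPM, its 9 columns share a lowest value of 8.6, so the values were read as variance-stabilized log2 values, and the closed form of that transform was inverted with the constant 388 (2 to the lowest value) to give normalized counts and CPM. Tests were run on the log2 values as deposited by the authors, as planned. The submitters' processing notes name kallisto 0.46.1 and DESeq2 1.24.0, with Trimmomatic 0.40, FastQC 0.11.9 and build GRCh38.p13, and give no role or order. Per the labels' protocols, kits with and without strand and single or paired ends were used, with no assignment to libraries. Low values fell on multiples of 0.857 to 1.13 normalized counts, the worth of 1 read, from which depth was estimated. Among genes with 1 transcript 85.5% to 98.6% of low values lay within 0.05 of a multiple, and among all genes 45.3% to 51.8%, against 10% by chance.

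With R 4.3.3, limma 3.58.1 (trended prior) was applied to the 11542 genes that passed the filter, after being tested on simulated data. The simulated libraries were independent and had no batch effect, so that test does not cover the pairing described next. Labels give each library a batch equal to its replicate number. Deviations from group means correlated at 0.187 to 0.51 between libraries of one number and at -0.387 to 0.159 between libraries of different numbers. The numbers thus pair the libraries. The main fit leaves this pairing out, and the fit with the block, which takes it up, is an alternative. Gene positions and merged exon lengths come from GENCODE release 29 (GRCh38) and sequences from RefSeq (GRCh38.p14), where 33 of the 45 genes had a window. Genes named were SOX11, every gene of the set and, of each further list and comparison, up to 4 called genes with the smallest adjusted p. The genes and lists were chosen with earlier results of these data known. Figures were drawn with matplotlib 3.10.9.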

Additional observations from a re-analysis of the deposited data

How the results depend on the processing

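None of the called differences of the genes described changed direction under an alternative. Of the 24 calls, 12 held under each alternative run and 12 were lost under at least 1. With the replicate block, 8 in place of 5 of these genes were called in the rescue against wild type, and all genes called numbered 2481 in place of 1470 in the knockout relative to wild type and 930 in place of 470 in the rescue against wild type. The block added 7 calls, given above, and took none of the 24 away. Leaving out 1 library gave 6 to 8 of these genes called in the knockout against wild type, 9 to 12 in the rescue against the knockout and 2 to 6 in the rescue against wild type, and 938 to 1395, 1738 to 2970 and 230 to 427 of all genes. The counts that moved by over 1.5 times without 1 library were all genes in the knockout against wild type without knockout replicate 1 (938), all genes in the rescue against wild type without rescue replicate 2 (251) or 3 (230), and these genes in that comparison without rescue replicate 1, 2 or 3 (3, 2 and 3). Leaving out 1 batch, so that groups kept 2 libraries, gave 5 to 7, 8 to 10 and 0 to 2 of these genes and 574 to 1264, 993 to 2156 and 111 to 249 of all genes. The 0 was limma's count in the rescue against wild type without batch 1, where 9 of the 24 had an unadjusted p under 0.05. The other settings, which were no filter, a stricter filter, 2 other log scales, median centring, quantile normalization and a fit of only the groups compared, kept each count within 1.5 times its value. The cause of these changes was not tested. The 14 genes under the filter were not tested at this depth, where 3 reads are worth 2.57 to 3.40 normalized counts, a floor for counting error only.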
